A study of Mus musculus with 3 samples.

Results

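The noncoding RNAs 7SK (Rn7sk), the RNA of RNase MRP (Rmrp), the RNA of RNase P (Rpph1) and telomerase RNA (Terc) were followed together with the protein-coding genes of P-TEFb control, Hexim1, Larp7, Mepce, Cdk9, Ccnt1 and Ccnt2. They were chosen by gene symbol in the annotation, and both entries that carry the symbol Rmrp were kept, which gave 11 of 55536 gene entries for 10 symbols. Of these, 5 are noncoding entries and 6 are protein-coding genes.

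The data are 3 total RNA-seq libraries of 1 group. Bone-marrow-derived macrophages of C57BL/6J mice received Lipid A, the part of bacterial lipopolysaccharide that Toll-like receptor 4 recognises, at 100 ng/ml for 12 h. They were then washed out for 12 h and given Lipid A at 100 ng/ml again for 50 min. Ribosomal RNA was depleted from RNA of the chromatin fraction, so each level is a level on chromatin and not in the whole cell. Per the labels, biological replicates 1, 2 and 3 started from 1 µg, 250 ng and 500 ng, and all carry the same donor name. Nothing says that the libraries came from separate animals or cultures, so their spread may be technical, and any p-value measures only that spread. All libraries carry the same treatment, so no response to Lipid A could be tested.

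7SK is a short nuclear RNA made by RNA polymerase III. It is the scaffold of a ribonucleoprotein that stores P-TEFb, the kinase Cdk9 bound to cyclin T1 or T2, in an inactive state. Larp7 binds the 3′ end of 7SK, Mepce caps its 5′ end, and Hexim1 docks on it and inhibits Cdk9. P-TEFb set free from this store phosphorylates paused RNA polymerase II and its partner factors, and in macrophages pause release is a control point of the inflammatory genes that Toll-like receptors induce. RNase MRP and RNase P are related RNA enzymes that share most of their protein subunits. RNase MRP cuts ribosomal RNA precursors and RNase P trims the 5′ end of precursor transfer RNA.

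The 3 stretches of RNA sequence, read from the GENCODE M21 transcripts (mouse build mm10) and all on the minus strand, printed here show where the counts described here have to be placed. The first is the 281-base Rmrp entry (chr4:43492783-43493063), in which capitals mark the 5 bases at each end that lie outside the 271-base entry. The second is the first 80 bases of Rn7sk (chr9:78175554-78175633), with each GATC in capitals, since GATC repeats in the 5′ hairpin of 7SK are known as the docking place of Hexim1. The third is the first 60 bases of Terc (chr3:96414800-96414859), with the CTAACCC of the telomere repeat template in capitals.
Rmrp: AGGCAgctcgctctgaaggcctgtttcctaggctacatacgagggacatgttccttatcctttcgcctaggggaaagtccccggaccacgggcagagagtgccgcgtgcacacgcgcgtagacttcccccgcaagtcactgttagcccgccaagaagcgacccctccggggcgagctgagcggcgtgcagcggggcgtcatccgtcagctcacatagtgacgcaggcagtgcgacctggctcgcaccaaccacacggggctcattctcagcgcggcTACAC
Rn7sk: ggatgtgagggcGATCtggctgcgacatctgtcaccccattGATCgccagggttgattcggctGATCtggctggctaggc
Terc: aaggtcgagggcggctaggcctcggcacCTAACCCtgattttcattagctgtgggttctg
GATC, which reads the same on both strands, occurred 3 times in those 80 bases of Rn7sk, starting at bases 13, 42 and 64. Of 140371 annotated transcripts of at least 80 bases, 0.169% held it 3 or more times in their first 80 bases. CTAACCC, searched on the transcript's own strand, lay at bases 29 to 35 of Terc and in the first 60 bases of 0.163% of 141515 transcripts. These matches describe the reference sequence.

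Library depth was 13897176 to 19597343 expected counts in the tables made from alignments and 20743071 to 34961536 estimated counts in the tables made directly from reads. All 6 macrophage markers looked at (Adgre1, Csf1r, Cd68, Lyz2, Itgam and Spi1) were detected, meaning a level of at least 1 TPM in every library, and their summed level was 758 to 1060 TPM. TPM, the number of transcripts of an RNA in each 1000000 transcripts, is corrected for the effective length of each RNA and is the scale used here to compare genes. None of 18 markers of neutrophils, B cells, T cells, dendritic cells, mast cells and stroma was detected, with a summed level of 2.01 to 2.75 TPM and 0 counts in every library for Retnlg, Cd3e, Cd3d, Mcpt8 and Cpa3. In the tables made from reads, 1 of the 18, Cd3d, passed at 15.7 ± 3.18 TPM (SD, n = 3). In such bulk samples, fewer cells that make an RNA and less RNA per cell cannot be told apart.

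Of the 11 entries, 10 were detected, against a background of 20.2% of all gene entries and 39.2% of protein-coding entries. In the tables made from reads all 11 were, against 32.6% of entries there. The short RNAs of RNase MRP, 7SK and RNase P had means of 2698 to 69592 TPM. Genes for the P-TEFb subunits had means of 41.7 to 99.4 TPM, and those for the 7SK-bound proteins 3.87 to 8.90 TPM. Terc, at a mean of 1.83 TPM, lay near the limit of detection. By mean TPM the 271-base Rmrp entry ranked 2 of 55536 entries, Rn7sk 10, the 281-base Rmrp entry 12 and Rpph1 47. From reads these entries ranked 3, 12, 13 and 57. By mean share of library counts, with no correction for length, they ranked 10, 38, 145 and 491. Among the other members by mean TPM, Cdk9 ranked 744, Ccnt2 925, Ccnt1 1727, Hexim1 5530, Mepce 7152, Larp7 8400 and Terc 10898. From reads these ranks were 1479, 1572, 1745, 10477, 9077, 13363 and 18237. Down this order, the libraries of neighbours lay apart between the 271-base Rmrp entry and Rn7sk, Rpph1 and Cdk9, Ccnt2 and Ccnt1, and Ccnt1 and Hexim1. The other 6 pairs of neighbours overlapped: Rn7sk with the 281-base Rmrp entry, that entry with Rpph1, Cdk9 with Ccnt2, Hexim1 with Mepce, Mepce with Larp7, and Larp7 with Terc. From reads, Mepce lay apart from Larp7 and Larp7 from Terc, Ccnt2 and Ccnt1 overlapped, and the mean of Mepce (8.74 TPM) was above that of Hexim1 (6.72 TPM).

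**Figure D1:**
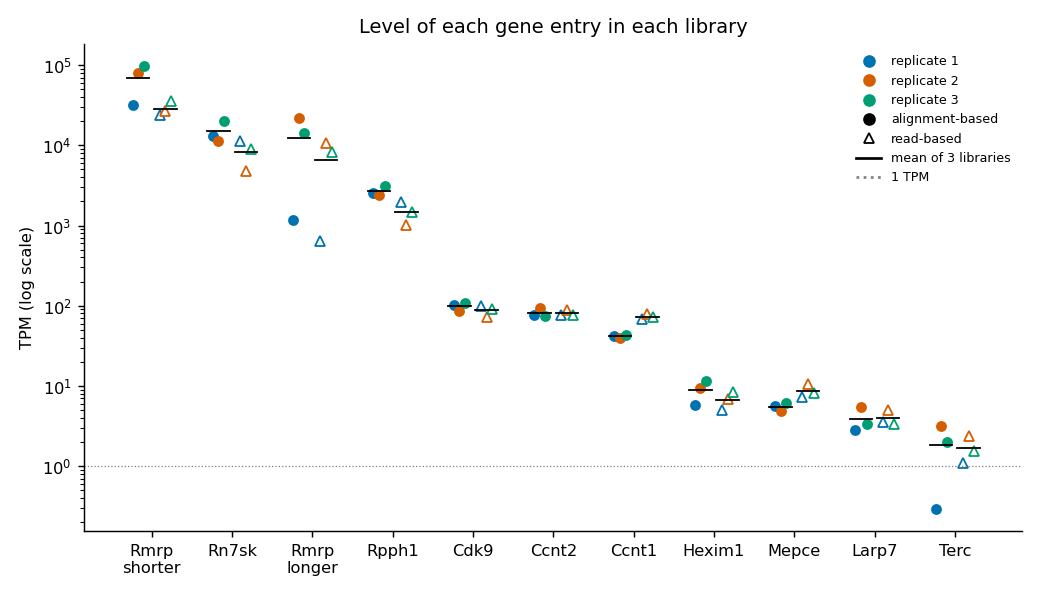
TPM on a log axis of each of the 11 gene entries in the 3 libraries (the shorter Rmrp entry is that of 271 bases, the longer that of 281), from alignments (filled circles) and from reads (open triangles), with bars at the means and a dotted line at 1 TPM. Apart from the 281-base Rmrp entry and Terc, the libraries of an entry lie within 3.09-fold of each other in either quantification, while the entries spread from 97027 TPM (Rmrp, 271 bases, replicate 3) down to 0.29 TPM (Terc, replicate 1).

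7SK itself, Rn7sk (ENSMUSG00000065037.1, chr9:78175303-78175633, a single exon of 331 bases annotated as misc_RNA), was at 13230 TPM in replicate 1, 11409 TPM in replicate 2 and 20007 TPM in replicate 3, a mean of 14882 ± 4531 TPM (SD, n = 3). Replicate 3 was highest on this scale, 1.75-fold above replicate 2. As CPM, the counts in each 1000000 counts of a library with no correction for length, the same libraries stood at 2117, 1005 and 1719, so replicate 1 was highest and replicate 2 lowest. The tables made from reads gave 11250, 4731 and 9086 TPM, in the order of the CPM values. Counting error was small against this, with a 95% Wilson interval of at most 1.40% of the value to either side, which covers counting error only.

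The RNA of RNase P, Rpph1 (ENSMUSG00000092837.1, chr14:50807449-50807767, annotated as ribozyme, 319 bases), moved like Rn7sk across the libraries. It was at 2566, 2383 and 3146 TPM (2698 ± 398 TPM, SD, n = 3) and at 381, 190 and 245 CPM. Again replicate 3 was highest by TPM and replicate 1 by CPM. The ratio of Rn7sk to Rpph1 counts was 5.56, 5.29 and 7.02 in replicates 1, 2 and 3, a range of 1.33-fold. Rpph1 shares 233 exonic bases with Ccnb1ip1 on the same strand, which had 1, 1 and 0 expected counts, against 3722 to 5296 for Rpph1. The annotated RNase P-like entries Rprl1, Rprl2 and Rprl3 had 0 expected counts in all 3 libraries of the tables made from alignments.

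Rmrp had the highest level of the members, and its TPM from alignments differed widely between libraries. On that scale the 271-base entry ranged over 3.09-fold, but it ranged over 1.45-fold by CPM and 1.47-fold by TPM from reads. The 271-base entry (ENSMUSG00000088088.1, chr4:43492788-43493058, ribozyme) was at 31432 TPM in replicate 1, 80316 TPM in replicate 2 and 97027 TPM in replicate 3, a mean of 69592 ± 34087 TPM (SD, n = 3). The 281-base entry (ENSMUSG00000115420.1, annotated as lincRNA), whose sequence is printed above, was at 1177, 22085 and 14061 TPM, a mean of 12441 ± 10548 TPM (SD, n = 3). Replicate 1 was lowest in both.

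The 2 Rmrp entries share 271 bases, so nearly every read that could come from one could come from the other. The 281-base entry held 3.93% of the counts of both in replicate 1 (95% Wilson interval 3.76 to 4.11%), 23.5% in replicate 2 (23.3 to 23.8%) and 14.0% in replicate 3 (13.7 to 14.2%). In the tables made from reads the shares were 2.79%, 30.0% and 19.8%, in the same order of libraries. The intervals of the libraries lie far apart, but they treat the estimated counts as observed and leave out the error of assigning reads to either entry. They therefore cannot show whether the true split differed between libraries. The split is an estimate between entries that differ by 10 bases.

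**Figure D2:**
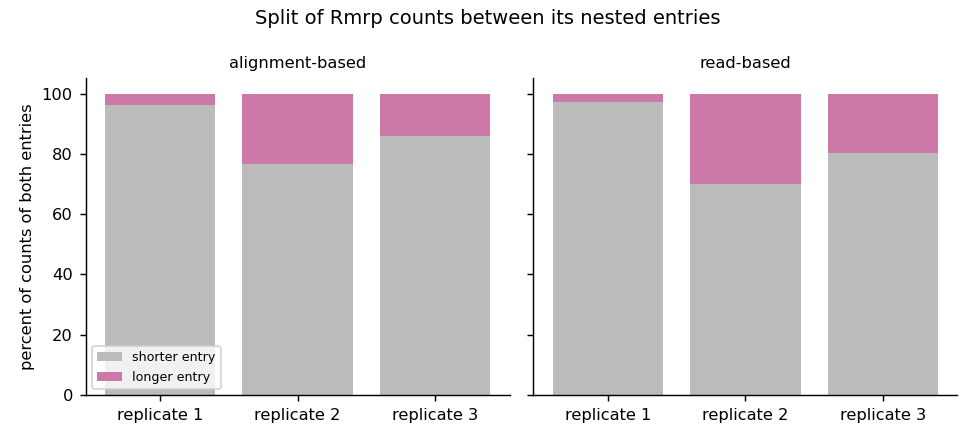
Percent of the counts of both Rmrp entries that each entry held, in the 3 libraries and both quantifications. The 281-base entry, drawn on top, takes 3.93% in replicate 1 and 23.5% in replicate 2 from alignments, and 2.79% and 30.0% from reads.

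Summed over both entries, which sets the split aside, Rmrp took 0.336%, 0.518% and 0.544% of all counts in replicates 1, 2 and 3. Replicate 1 remained the lowest. Relative to other polymerase III RNAs the difference was wider: the ratio of summed Rmrp counts to Rpph1 counts was 8.82, 27.3 and 22.2, and that to Rn7sk counts 1.59, 5.16 and 3.16. The tables made from reads gave 8.99, 27.3 and 22.3 to Rpph1 and 1.47, 5.47 and 3.36 to Rn7sk. Both ratios were lowest in replicate 1 and highest in replicate 2, with a range from alignments of 3.09-fold to Rpph1 and 3.25-fold to Rn7sk, whereas Rn7sk and Rpph1 kept their ratio to each other within 1.33-fold. Replicate 1 was also the library with the largest starting amount, and replicate 2 that with the smallest; the part of the starting amount in these ratios was not tested. On the opposite strand, Ccdc107 shares 124 exonic bases with Rmrp and was at 2.31 ± 0.890 TPM (SD, n = 3), with 13 to 32 counts.

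Within each library the 271-base Rmrp entry stood above Rn7sk, by 1.25, 2.82 and 2.28 on the log2(TPM + 1) scale, a mean of 2.11 ± 0.80 (SD, n = 3) or 4.33-fold. The difference was 1.34 by CPM, 1.85 from reads and 1.63 with the annotated length in place of the effective length. The direction held in 3 of 3 libraries, but an exact two-sided sign-flip test over 3 libraries cannot give a p below 0.25, which is the p it gave (Benjamini-Hochberg adjusted p = 0.3125 over the 5 pairs compared by this exact test).

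Terc (ENSMUSG00000064796.1, chr3:96414437-96414859, misc_RNA, 423 bases), the template RNA of telomerase, rested on 1, 10 and 6 expected counts. These gave 0.29, 3.19 and 2.01 TPM, and in these libraries 3 counts correspond to 0.870, 0.957 and 1.00 TPM. It was the only member not detected, because of replicate 1, and it passed in all libraries of the tables made from reads at 1.10, 2.40 and 1.56 TPM on 5, 16 and 9 counts. A difference between libraries was not resolved at this depth.

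The high levels of the short RNAs carry a length correction that differed between the libraries. The effective length is the number of positions at which a fragment could start. For the noncoding members it was 19.8 to 60.4% of the annotated length from alignments. The labels give the same size range, 250 to 400, for all libraries, and its part in these levels was not tested. In the tables made from alignments the 271-base Rmrp entry had an effective length of 105 bases in replicate 1, 53.6 in replicate 2 and 56.1 in replicate 3. In the tables made from reads it was 114, 101 and 103 bases. For RNAs of at least 2000 bases, the annotated length exceeded the effective length by 167, 257 and 249 bases from alignments and by 165, 206 and 217 bases from reads. For this entry 1 CPM thus corresponded to 9.73 TPM in replicate 1 but to 20.3 and 20.7 TPM in replicates 2 and 3. Rn7sk followed with effective lengths of 164, 95.7 and 100.02 bases, and Rpph1 with 152, 86.6 and 90.6 bases.

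For 3 of the short RNAs the ratio of the level from reads to the level from alignments was nearest to 1 in replicate 1. It was 0.766, 0.330 and 0.363 for the 271-base Rmrp entry, 0.850, 0.415 and 0.454 for Rn7sk, and 0.767, 0.426 and 0.464 for Rpph1. The other short entries did not follow this order: the 281-base Rmrp entry had 0.543, 0.481 and 0.582, and Terc, on few counts, had 3.81, 0.751 and 0.778. Hexim1, whose single transcript of 3495 bases leaves little to correct, had 0.864, 0.717 and 0.733. By CPM the corresponding ratios were 0.717, 0.569 and 0.607 for the 271-base entry, so counts as well as lengths differed between the quantifications. How much of the difference in TPM comes from either was not tested.

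**Figure D3:**
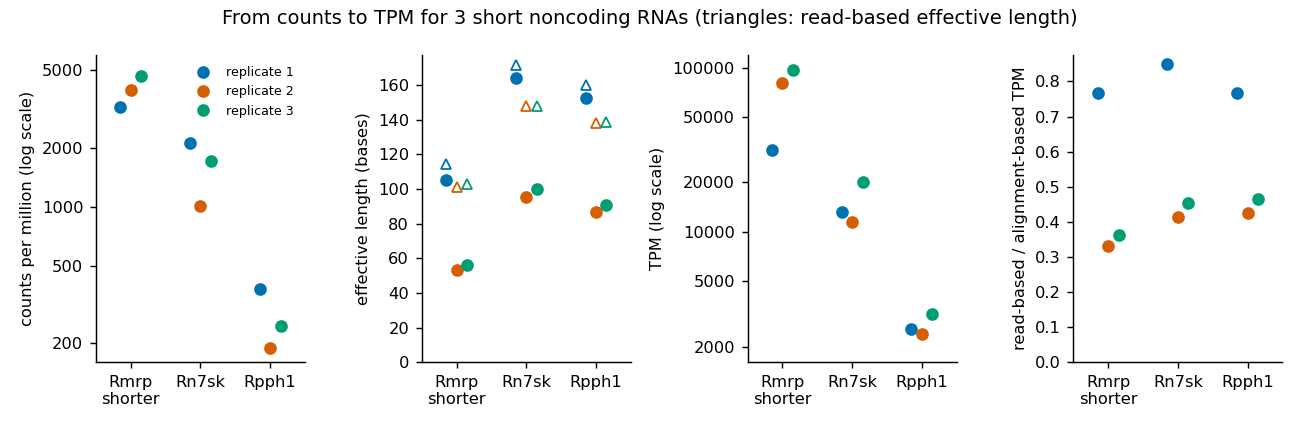
CPM, effective length in bases (circles from alignments, open triangles from reads), TPM, and the ratio of TPM from reads to TPM from alignments, for the 271-base Rmrp entry, Rn7sk and Rpph1 in each library; the CPM and TPM axes are logarithmic. Replicate 1 has the longest effective lengths and ratios of 0.766 to 0.850, while replicates 2 and 3 have ratios of 0.330 to 0.464.

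With a difference of at least 1.5-fold in the same direction in every library as the threshold, 2 members differed between the quantifications. The 281-base Rmrp entry was lower from reads, as were 0.734% of 21129 entries tested and 1.51% of the 1059 of those with 250 to under 450 bases. Ccnt1 was higher from reads, as were 50.4% of entries, a background that leaves nothing particular in that call. Without replicate 1, 4 members were lower from reads, namely both Rmrp entries, Rn7sk and Rpph1, beside 1.3% of all entries and 4.72% of those of 250 to under 450 bases; Ccnt1 was again higher, as were 54.5% of entries. By CPM none of the members passed this threshold in either direction, where 42.2% of entries were higher and 0.465% lower from reads. Members whose highest library was at least 2-fold above the lowest numbered 2 of the 10 detected, both Rmrp entries, against 24.7% of detected entries. Without replicate 1 the count was 0, and the share over all entries also fell, to 10.3%. By CPM they were 3, Rn7sk, Rpph1 and the 281-base Rmrp entry, against 23.4% of entries, and the 271-base Rmrp entry ranged over 1.45-fold. From reads they were also 3, Rn7sk, the 281-base Rmrp entry and Terc, against 26.8%. The 281-base Rmrp entry was thus past 2-fold by all 3 measures, at 18.8-fold by TPM, 9.23-fold by CPM and 16.6-fold from reads. Terc was left out of the counts by TPM and CPM because it did not reach the minimum level in every library.

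Of the P-TEFb subunits, the kinase gene Cdk9 (ENSMUSG00000009555.16, chr2:32705784-32713076, minus strand) was at 103, 87.2 and 108 TPM, a mean of 99.4 ± 10.8 TPM (SD, n = 3). Ccnt2 (ENSMUSG00000026349.14, chr1:127774164-127808061, plus strand), for cyclin T2, was at 75.8, 93.5 and 73.6 TPM, a mean of 81.0 ± 10.9 TPM. Ccnt1 (ENSMUSG00000011960.12, chr15:98538689-98570923, minus strand), for cyclin T1, was at 41.9, 40.0 and 43.1 TPM, a mean of 41.7 ± 1.53 TPM and the smallest relative spread of the members on this scale. All 3 lay above the 9.95 TPM that was the median of detected protein-coding entries.

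Cdk9 exceeded Ccnt1 in 3 of 3 libraries by 1.23 ± 0.11 on the log2(TPM + 1) scale (SD, n = 3), or 2.35-fold, with an exact sign-flip p of 0.25 (adjusted p = 0.3125). The gap was 0.26 ± 0.34 (SD, n = 3) in the tables made from reads, where Cdk9 lay below Ccnt1 in replicate 2, and by CPM, where the longer Ccnt1 transcripts collect more counts, it was -0.35. Ccnt1 lay below Ccnt2 in 3 of 3 libraries, by -0.93 ± 0.24 (SD, n = 3; exact sign-flip p = 0.25, adjusted p = 0.3125), but by only -0.16 from reads, where the ranges of both cyclins overlapped. Cdk9 and Ccnt2 overlapped in both quantifications.

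The gene levels of the P-TEFb subunits were sums over several annotated transcripts, many of which do not code for the protein. For Cdk9, with 9 annotated transcripts, protein-coding ones made up 34.0%, 49.3% and 55.3% of the TPM in replicates 1, 2 and 3. A transcript of 846 bases annotated for nonsense-mediated decay stood at 59.0, 27.3 and 35.8 TPM, and the protein-coding form of 1733 bases at 28.2, 21.2 and 26.4 TPM. Another protein-coding form, of 1565 bases, was listed at 0 TPM in replicate 1 and at 18.1 and 31.2 TPM in replicates 2 and 3. From reads that form was at 1.22, 8.71 and 17.3 TPM, so replicate 1 was lowest in both. The decay-annotated form shares 622 of its bases with the 1733-base form, and 224 of its bases lie outside it. The microRNAs Mir2861 and Mir3960, which lie in an exon of Cdk9 on the same strand, were listed at 0 in both quantifications. They share 82 and 73 exonic bases with Cdk9, below the labelled size range of 250 to 400, so a 0 cannot show that they are absent.

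For Ccnt2, protein-coding transcripts made up 23.1 ± 2.39% of the TPM (SD, n = 3), retained-intron transcripts 50.1 ± 2.45% and a processed transcript 26.8 ± 0.975%. This processed transcript is 7640 bases long and held 50.2 ± 2.27% of the gene's counts. Ccnt1 had 37.1 ± 6.77% of its TPM in protein-coding transcripts and 30.4 ± 2.51% in retained-intron ones. From reads these shares of Ccnt1 were 16.8 ± 1.85% and 74.2 ± 7.64%, so its higher level from reads went with a larger share of retained-intron transcripts. By counts rather than TPM, 78.7 ± 4.75% of Ccnt1 lay in the protein-coding form of 7397 bases. An annotated antisense gene, 9330020H09Rik, shares 695 exonic bases with Ccnt1 and was at 0.503 ± 0.129 TPM (SD, n = 3).

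Protein-coding transcripts gave less than 50% of the TPM in every library for Ccnt1 and Ccnt2, 2 of the 5 protein-coding members with several transcripts. The same held for 34.4% of 8150 detected protein-coding entries with several transcripts.

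**Figure D4:**
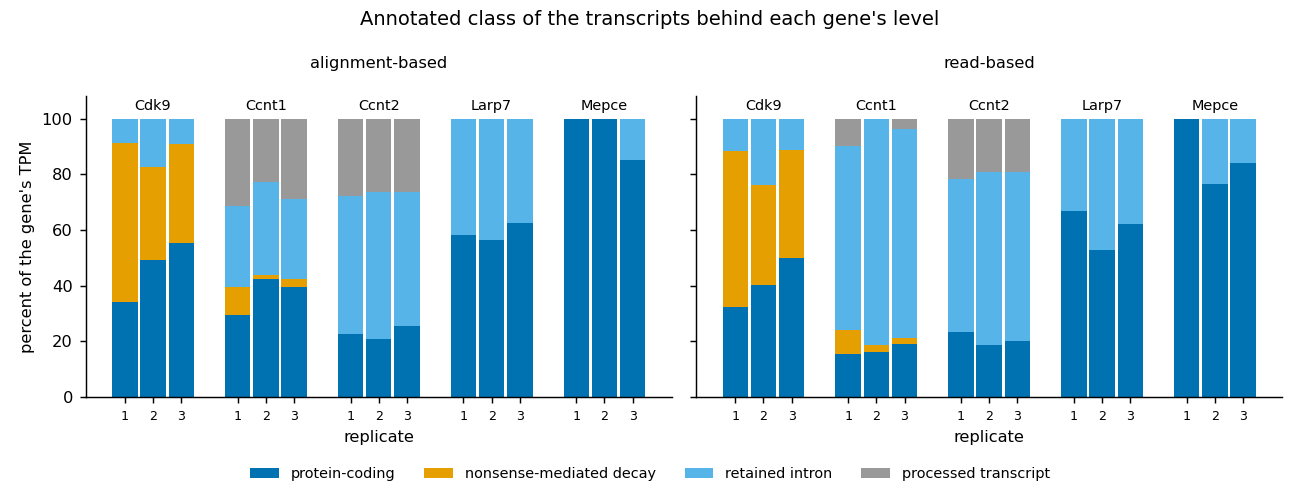
Percent of each gene's TPM in transcripts of each annotated class, for Cdk9, Ccnt1, Ccnt2, Larp7 and Mepce in the 3 libraries, from alignments (left) and from reads (right). Protein-coding transcripts make up 23.1% of Ccnt2 on average from alignments, and retained-intron transcripts make up 30.4% of Ccnt1 from alignments against 74.2% from reads.

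The genes for the proteins that bind 7SK lay below those of the P-TEFb subunits. Among 22028 protein-coding entries Hexim1 ranked 4565, Mepce 5763 and Larp7 6660 by mean TPM. Hexim1 (ENSMUSG00000048878.6, chr11:103116231-103119725, plus strand), the inhibitor of Cdk9, was at 5.75, 9.48 and 11.5 TPM, a mean of 8.90 ± 2.90 TPM (SD, n = 3), with replicate 1 lowest. Mepce (ENSMUSG00000029726.16, chr5:137781906-137787655, minus strand), the capping enzyme, was at 5.61, 4.81 and 6.06 TPM, a mean of 5.49 ± 0.633 TPM. Larp7 (ENSMUSG00000027968.11, chr3:127536714-127553349, minus strand), the 3′-end binding protein, was at 2.85, 5.40 and 3.35 TPM, a mean of 3.87 ± 1.35 TPM on 62, 123 and 75 counts. Its 95% Wilson interval reached up to 25.1% of the value to either side, so its libraries are resolved less well than those of the genes above.

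Hexim1 stood above Larp7 in 3 of 3 libraries, by 1.01 ± 0.44 on the log2(TPM + 1) scale (SD, n = 3), or 2.02-fold (exact sign-flip p = 0.25, adjusted p = 0.3125). The size of this gap depended on the measure. It was 0.62 ± 0.42 (SD, n = 3) from reads, 1.58 over protein-coding transcripts only and 2.20 by CPM. Larp7 and Mepce differed by -0.45 ± 0.51 (SD, n = 3), less than their spread, with Larp7 higher in 1 of 3 libraries (exact sign-flip p = 0.5, adjusted p = 0.5). From reads the difference was -0.96 ± 0.10 (SD, n = 3), with Larp7 lower in every library and the ranges apart. It was -0.94 over protein-coding transcripts only and -1.34 by CPM. Hexim1 has a single annotated transcript. Protein-coding transcripts made up 95.0 ± 8.57% of the TPM of Mepce and 59.0 ± 3.17% of that of Larp7, the rest of Larp7 being retained-intron forms. The microRNAs Mir302a, Mir302b, Mir302c, Mir302d and Mir367 lie inside Larp7 on the opposite strand, share no exonic base with it, and had 0 expected counts. In the tables made from reads they ranged from 0 to 7.47 TPM. For entries as short as microRNAs, 0 counts cannot show absence.

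Other genes of the same pathways were taken from 6 lists. Of the 85 genes found 61 were detected, against 20.2% of all gene entries and 39.2% of protein-coding entries. Levels and orders within the lists are from alignments unless stated. P-TEFb release and elongation had 26 of 28 genes detected, at a median level of 14.3 TPM. Ell2, an elongation factor of the super elongation complex, was highest at 272, 128 and 167 TPM, a mean of 189 ± 74.3 TPM (SD, n = 3), above Cdk9 in each library. Cdk12, a kinase of the RNA polymerase II tail, followed at 89.6 ± 14.5 TPM, and Eaf2, an Ell-associated factor, was lowest at 0.117 ± 0.0643 TPM, against 2.93 ± 0.399 TPM from reads (SD, n = 3). The other undetected gene was Ell3. Hexim2, the paralogue of Hexim1, was picked out for its role with its values known. It stood at 1.84 ± 0.0764 TPM from alignments and 5.56 ± 1.48 TPM from reads (SD, n = 3).

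The genes for the protein subunits of RNase MRP and RNase P contrasted in level with their RNAs. Of these genes 6 of 11 passed detection, with a median of 1.18 TPM. Over all protein-coding entries 39.2% passed, with a median of 0.367 TPM. From alignments Rpp21 was highest at 4.003 ± 1.14 TPM and Pop5 followed at 3.95 ± 1.17 TPM (SD, n = 3), whereas Rpp25 had 0 expected counts in all libraries. From reads the order differed, with Rpp30 highest at 11.5 ± 6.10 TPM. Among 9 genes for telomerase proteins 5 were detected, with a median of 3.48 TPM. Tep1, a telomerase-associated protein, was highest at 95.8 ± 26.0 TPM, and Dkc1, the pseudouridine synthase that binds Terc, followed at 6.61 ± 2.04 TPM. Tert, the reverse transcriptase that copies Terc, was lowest, with 0, 0 and 2 counts.

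Of 20 genes of polymerase III transcription, which makes 7SK and the RNAs of RNase MRP and RNase P, 15 were detected, with a median of 5.47 TPM. Bdp1, a subunit of the initiation factor TFIIIB, was highest at 38.0 ± 2.89 TPM, Snapc3, of the complex that binds the promoter of such genes, followed at 26.5 ± 5.80 TPM, and Polr3g, a polymerase subunit, was lowest at 0.41 ± 0.387 TPM (SD, n = 3). All 4 genes of RNA end binding were detected, from Larp4 at 11.9 ± 3.57 TPM to Larp1 at 37.8 ± 10.9 TPM and Larp4b at 46.5 ± 4.41 TPM, which from reads was at 155 ± 11.1 TPM (SD, n = 3). For comparison, the median over all protein-coding entries was 0.367 TPM and over detected ones 9.95 TPM.

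Other short noncoding RNAs ranged widely. Of 13 entries found 5 were detected, and 8 had 0 expected counts in all libraries of the tables made from alignments, namely Rnu11, Rnu7, Rny1, Rny3, Rprl1, Rprl2, Rprl3 and Vaultrc5. Detection here can rest on very few counts. Snora17 passed on 4, 1 and 1 expected counts, given as 96.6, 38.9 and 41.1 TPM in replicates 1, 2 and 3. Rnu12 had 43, 37 and 25 counts at a mean of 399 ± 88.5 TPM (SD, n = 3). Likewise, 0 counts for a short entry do not show that its RNA is absent. From reads 7 of the 13 were detected, and Rny3 stood at 12.3 ± 4.19 and Vaultrc5 at 5.48 ± 4.10 TPM (SD, n = 3). The highest were Rn7s1 and Rn7s2, entries for the RNA of the signal recognition particle, which were given identical values of 7893, 7832 and 10725 TPM in replicates 1, 2 and 3 and so cannot be told apart. Replicate 3 was highest there too on the TPM scale; replicate 1 had the most expected counts, 14293 against 10290 and 13596, although its library was the smallest.

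**Figure D5:**
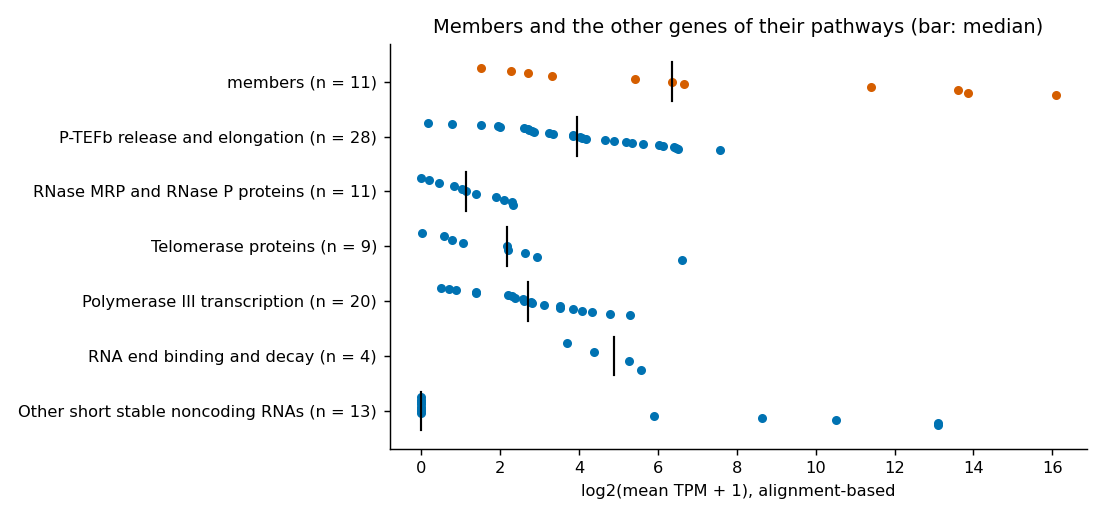
Mean TPM over the 3 libraries, as log2(TPM + 1), of the 11 member entries (orange) and of the genes of the 6 lists (blue), with a bar at each median. The list medians lie at 14.3 TPM for P-TEFb release and elongation and at 1.18 TPM for the protein genes of RNase MRP and RNase P. Of the 13 other short noncoding RNAs 8 lie at 0.

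The entries whose levels over the 3 libraries were most like those of a member were sought by distance in log2(TPM + 1), among 12883 entries with a mean of at least 1 TPM. For Rn7sk these were the predicted genes Gm25776 (snoRNA, distance 0.355), Gm25939 (snRNA, 0.768) and Gm23444 (snRNA, 1.05). Gm25776 stood at 12184, 10781 and 15983 TPM, so it shared with Rn7sk a lowest value in replicate 2 and a highest in replicate 3. The entries most like Cdk9 were Lmo4 (distance 0.0389), Tardbp (0.113) and Ptpn23 (0.117). Lmo4 stood at 104, 85.2 and 106 TPM, within 2 TPM of Cdk9 in each library. With 3 libraries and so many entries, such likeness is a description of level and order.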

How the data were processed

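Total RNA-seq of the chromatin fraction was deposited for 3 libraries of 1 group. Reads were quantified on mm10 with GENCODE M21 annotation, per the file headers, from alignments to the transcriptome and directly from reads. No source used here gives the programs, the strand setting or the level of the deposited credible intervals. The authors deposited expected counts, which are estimates and can be fractions of a count. TPM values, also deposited, are corrected for effective length and sum to 1000000 in each library. CPM were computed from the expected counts without rounding. Rows for transfer RNA and spike-in sequences held 0.206 to 1.25% of the counts and stayed in the totals.

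The members and lists were chosen with earlier results of these data known. From each list the 2 highest genes, the lowest and those with 0 counts were named, with overlapping genes and the 3 entries most alike. Detection needed 1 TPM in every library, differences used log2(TPM + 1), and differences between pairs of genes an exact two-sided sign-flip test over libraries with Benjamini-Hochberg adjustment over 5 pairs. Call rules were run on simulated counts with sampling noise only and planted changes larger than the thresholds. This checks the code and not how the rules perform on these libraries. Counts of the libraries differed by far more than sampling noise (chi-square per degree of freedom 41.6 to 103), so none was a repeat deposit. Alternatives were the other quantification, CPM, other thresholds and pseudocounts, posterior mean TPM, summed Rmrp entries, protein-coding transcripts and leaving out each library. Python 3.11.15, pandas 2.3.3, numpy 2.4.6 and scipy 1.17.1 were used.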

Additional observations from a re-analysis of the deposited data

How the results depend on the processing

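The main limits are the 3 libraries of 1 group, the effective lengths of the short RNAs and the counts of Terc and Larp7. No comparison between groups, paired or not, was possible because all libraries belong to 1 group. Pairs of genes were compared within each library. Of the pair differences, Cdk9 minus Ccnt1 reversed, to -0.35 by CPM, by the construction of that scale, which keeps transcript length in. Left out by turns, the libraries gave 1.76 to 2.55 for Rmrp minus Rn7sk, 1.19 to 1.29 for Cdk9 minus Ccnt1, -1.02 to -0.80 for Ccnt1 minus Ccnt2, 0.76 to 1.16 for Hexim1 minus Larp7 and -0.74 to -0.28 for Larp7 minus Mepce. The number of partner genes detected fell from 61 to 37 at a threshold of 5 TPM, for which no share over all gene entries is given. The number of members that differed between quantifications was 2, beside 51.1% of all entries tested. It was 0 at 2-fold (41.3% of entries), 0 by CPM (42.6%) and 2 to 5 with a library left out (53.5 to 55.8%), the highest without replicate 1. The number with a 2-fold spread was 2 (24.7% of entries), and 0 to 2 with a library left out (8.05 to 16.8%), the lowest without replicate 1 (10.3%). It was 5 of the 10 detected at a 1.5-fold spread, where 57.6% of entries passed. The median of the members' mean TPM was 81.0. It was 285 when rescaled over protein-coding genes, by the construction of that scale, which multiplies all entries of a library by the same factor. With the annotated length in place of the effective length, an alternative chosen after seeing the data, it was 174. The cause of that last change was not tested. The members detected numbered 10, 10 at 0.5 TPM, 8 at 5 TPM, 11 from reads and 11 without replicate 1. The share over all gene entries was 20.2% for the first of these and 32.6% from reads. No such share is given at the other settings, so those counts say nothing particular about the members.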
